A study of Mus musculus with 6 samples.

Results

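A set of 10 genes of classical (M1) macrophage activation and T cell costimulation was followed in polysome RNA from RAW264.7, a macrophage-like line of the mouse. They are Tnf, its receptors Tnfrsf1a and Tnfrsf1b, the costimulatory molecules Cd40, Cd80 and Cd86, the enzymes Nos2 and Ptgs2, and the regulators Socs3 and Irf5. They were chosen by symbol, and all 10 were found among the 19233 genes of the deposited table. The tested condition was BMH-21 at 500 nM for 24 h, an intercalating compound that inhibits RNA polymerase I, added 24 h after polarization, with 3 libraries. The controls received the vehicle DMSO, also with 3 libraries. Both groups are titled as M2 RAW264.7 cells, a transformed male mouse line that is 1 line grown in culture, so each value describes that line and not primary macrophages. The treatment text in the labels also describes bone-marrow macrophages, with IL-4 at 20 ng/ml for M2 or interferon gamma and LPS at 50 ng/ml each for M1, and does not state which agent the line received. The label of DMSO replicate 2 names polyA RNA and the other 5 name total RNA, while 1 oligo-dT library kit is described for all.

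Classically activated macrophages make tumour necrosis factor (TNF), nitric oxide and prostaglandins, and show the costimulatory ligands CD80 and CD86 to the CD28 and CTLA-4 receptors of T cells. CD40 on the macrophage receives the CD40 ligand of activated T cells, and TNF acts back on the same cell through the receptors TNFR1 and TNFR2. M2 polarization by IL-4 is a different state, in which M1 genes such as Nos2 are known to be kept low. Polysomes are mRNAs that carry several ribosomes, so a polysome value mixes how much of an mRNA the cells held with how much of it was on ribosomes, and unfractionated RNA was not analysed here.

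Values are FPKM (fragments scaled to transcript length and library size), and differences are BMH-21 minus DMSO on the log2(FPKM + 1) scale, which understates changes of genes near or under 1 FPKM. The FPKM steps of low genes implied 18770000 to 22560000 assigned reads in BMH-21 libraries and 21610000 to 24070000 in DMSO libraries. Pairs of libraries correlated across genes at 0.9974 to 0.9978 within BMH-21, at 0.997 to 0.9976 within DMSO, and at 0.9627 to 0.964 between the groups. Of 12 macrophage markers, 11 averaged at least 1 FPKM over the 6 libraries, and Mertk did not. Their summed level, most of it Lyz2, was 22000 to 23200 FPKM in BMH-21 libraries and 13200 to 13600 FPKM in DMSO libraries. Lyz2, Cd68, Itgam, Fcgr3, Spi1, Cd14, Laptm5, Tyrobp and Ctss were called higher in BMH-21, and Adgre1 (F4/80) and Csf1r were called lower. Adgre1 averaged 22.7 ± 0.52 FPKM in BMH-21 and 40.7 ± 1.3 FPKM in DMSO, and Csf1r 49.2 ± 3.2 FPKM in BMH-21 and 56.2 ± 1.9 FPKM in DMSO (SD, n = 3 each). Of 9 measured M2 markers 6 averaged at least 1 FPKM. The M2 list summed to 37.1 to 40.7 FPKM in BMH-21 libraries and 71.6 to 76.7 FPKM in DMSO libraries. Klf4 made most of that gap, at 6.15 ± 0.5 FPKM in BMH-21 and 28.9 ± 0.63 FPKM in DMSO. Arg1, Clec10a, Mgl2 and Il4ra were also lower in every BMH-21 library than in any DMSO library. Clec10a averaged 13.4 FPKM in BMH-21 and 16.7 FPKM in DMSO, Mgl2 15.5 and 20.3 FPKM, and Il4ra 0.127 and 0.343 FPKM. Mrc1 was called lower with overlapping groups. Tgm2 was not called, Pparg averaged 0.594 FPKM in BMH-21 and 0.601 FPKM in DMSO, and Ccl22 averaged 0.522 FPKM in BMH-21 and 0.204 FPKM in DMSO. The B cell, dendritic cell, neutrophil, fibroblast and endothelial lists had 0 markers at that level, and the T cell list had only Lck.

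One DMSO library stood apart. The 5 listed epithelial markers summed to 13.9, 10.9 and 13 FPKM in BMH-21 replicates 1, 2 and 3, and to 0, 0.088 and 9.66 FPKM in DMSO replicates 1, 2 and 3. Krt18, an epithelial keratin, was at 8.89, 6.41 and 8.09 FPKM in the BMH-21 libraries and at 0, 0.0644 and 5.47 FPKM in the DMSO libraries. DMSO replicate 3 thus held epithelial transcripts at levels near those of the BMH-21 libraries, and the other DMSO libraries were at or near 0. Its part in the members' results was not tested. Differences are also given against DMSO replicate 3 alone, an alternative added after the values were seen, in which the lone library is assumed to vary like the others.

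Under BMH-21, Tnf, Cd80, Tnfrsf1b, Irf5 and Ptgs2 rose, and Cd40, Cd86, Socs3 and Tnfrsf1a fell, though Tnfrsf1a was not called, and stood slightly above 0, after median-ratio or upper-quartile scaling. The groups of Ptgs2 overlapped, and it was not called without the level filter or against DMSO replicate 3 alone. Of the tested members Cd40 changed most, to a mean of 0.775 FPKM in BMH-21 libraries against 5.45 FPKM in DMSO libraries. Cd80 rose to 2.56 times its DMSO mean. Nos2, the inducible nitric oxide synthase, was under the level needed for the test, and was lower in every BMH-21 library than in any DMSO library. The costimulatory pair moved apart, Cd80 up and Cd86 down, and Tnfrsf1b gained on Tnfrsf1a in every BMH-21 library relative to every DMSO library.

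A gene was tested when it reached 1 FPKM in at least 3 libraries, which 9748 genes did, and was called when the p-value from limma, adjusted by the Benjamini-Hochberg method over those genes, was under 0.05. Of the 10 members 9 were tested and all 9 were called, 5 higher and 4 lower (5 higher and 3 lower after median-ratio scaling). This is no result about the members as a set, because 78.3% of all tested genes were called, 19.9% higher (1938 genes) and 58.4% lower (5690 genes). After median-ratio scaling, 3724 genes were called higher and 3442 lower. Of the 9 tested members, 8 had groups that did not overlap, against 79.8% of all tested genes. Cd86 passed the level filter through its DMSO libraries alone, Cd40 through 3 DMSO libraries and 1 BMH-21 library, and Ptgs2 through 3 BMH-21 libraries and DMSO replicate 3. The median difference of all tested genes was -0.23, so members are also given relative to that shift. On that measure Cd80 stood at 1.21, Ptgs2 at 0.74, Cd86 at -0.5, Socs3 at -0.7 and Cd40 at -1.63. The values of the other tested members are given with each below.

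**Figure D1:**
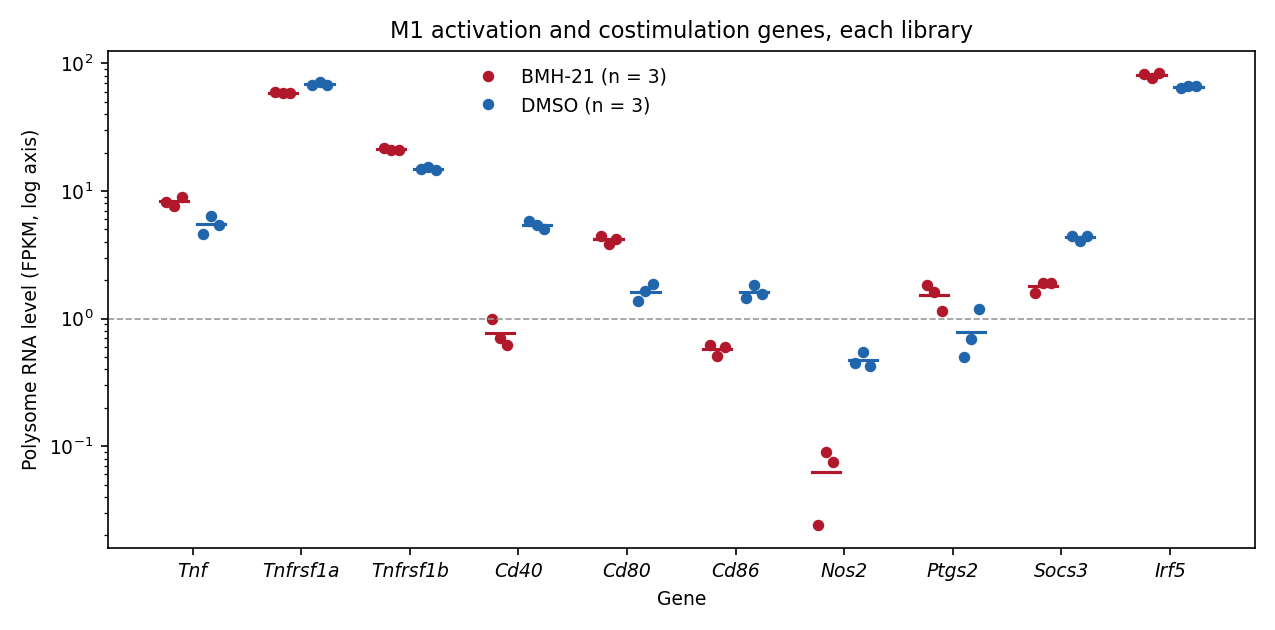
Level of each of the 10 members in every library, in FPKM on a log axis, with BMH-21 libraries left of DMSO libraries and the group mean as a bar. The groups are separate for every member except Ptgs2, whose BMH-21 replicate 3 at 1.14 FPKM lies under DMSO replicate 3 at 1.19 FPKM.

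Tnf encodes the cytokine TNF, which is made as a membrane protein and shed from the cell. Its level was 8.25, 7.65 and 9.03 FPKM in BMH-21 libraries, against 4.64, 6.41 and 5.42 FPKM in DMSO libraries. All BMH-21 libraries lay above all DMSO libraries. The means were 8.31 ± 0.69 FPKM in BMH-21 and 5.49 ± 0.89 FPKM in DMSO (SD, n = 3 each), a ratio of 1.51. The difference was 0.53 ± 0.09 on the log2 scale (SE; 95% interval 0.32 to 0.74; adjusted p = 0.000441 by limma), or 0.76 above the shift of all genes. The change placed Tnf at percentile 94.3 of the tested genes. Against DMSO replicate 3 alone it was 0.53 (adjusted p = 0.000729 by limma). The gene lies on chromosome 17 from 35199381 to 35202007 on the minus strand (GRCm38, the mm10 build).

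Tnf mRNA is known for its AU-rich element, repeats of ATTTA in the 3′ UTR through which RNA-binding proteins control its decay and translation, and Ptgs2 mRNA carries one too. For both 3′ UTRs the stretch of 30 bases with the most copies of the longer form TTATTTATT is shown, because no other member had that form. Ties were settled by the number of copies of ATTTA, which is in capitals. Both were read from the GENCODE M21 transcripts on GRCm38. The Tnf site lies at chr17:35199679-35199708 on the minus strand, and the Ptgs2 site at chr1:150105794-150105823 on the plus strand.
Tnf: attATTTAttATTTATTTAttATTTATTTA
Ptgs2: ccatATTTATTTATTTAtgtgaagaATTTA
The Tnf stretch holds 5 copies of ATTTA, and the Ptgs2 stretch holds 4. Over the whole 3′ UTR, Tnf had 8 copies of ATTTA in 764 bases and 5 of the longer form TTATTTATT. Ptgs2 had 14 copies of ATTTA in 2445 bases and 1 of the longer form, copies being allowed to overlap. No other member had the longer form, which was found in 6.99% of 9080 tested genes with a 3′ UTR, and 4 or more copies were found in 0.176%. These are matches of letters. Members without the longer form moved both ways, Cd80, Irf5 and Tnfrsf1b up and Cd40, Cd86 and Socs3 down.

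TNF receptor 2, encoded by Tnfrsf1b, recruits TRAF2 and has no death domain. Its level was 21.8, 20.8 and 21 FPKM in BMH-21 libraries, against 14.8, 15.3 and 14.5 FPKM in DMSO libraries. The replicates were tight, with a coefficient of variation of 2.46% in BMH-21 and 2.53% in DMSO, and the groups were far apart. The means were 21.2 ± 0.52 FPKM in BMH-21 and 14.9 ± 0.38 FPKM in DMSO (SD, n = 3 each), a ratio of 1.42. The log2 difference was 0.48 ± 0.04 (SE; 95% interval 0.39 to 0.58; adjusted p = 2.39e-06 by limma), 0.72 above the shift of all genes. Tnfrsf1b lies on chromosome 4 from 145213463 to 145246870 on the minus strand.

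TNF receptor 1, encoded by Tnfrsf1a, carries a death domain and is found on nearly all cell types. Its level was 59.2, 58.3 and 59.1 FPKM in BMH-21 libraries, against 67.2, 71.8 and 67.2 FPKM in DMSO libraries. Every BMH-21 library was lower, but by a small margin. The means were 58.9 ± 0.52 FPKM in BMH-21 and 68.7 ± 2.7 FPKM in DMSO (SD, n = 3 each), a ratio of 0.856. The log2 difference was -0.22 ± 0.04 (SE; 95% interval -0.31 to -0.13; adjusted p = 0.000536 by limma). It was 0.01 from the median shift of all genes, at percentile 51.2 of them, so the fall was that of the typical gene in these libraries. After median-ratio scaling, which divides out that shift, the difference turned to 0.07 and was not called (adjusted p = 0.113 by limma), and after upper-quartile scaling it was 0.01 (adjusted p = 0.758 by limma). The gene lies on chromosome 6 from 125349362 to 125362484 on the plus strand.

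The ratio of the receptors within a library does not move with the scaling of that library, apart from the added 1 FPKM. Tnfrsf1b over Tnfrsf1a was 0.368, 0.357 and 0.355 in BMH-21 libraries, against 0.221, 0.213 and 0.216 in DMSO libraries. The groups were separate, and TNF receptor 2 mRNA stayed below TNF receptor 1 mRNA in all 6. On the log2 scale the ratio was -1.43 ± 0.03 in BMH-21 and -2.13 ± 0.03 in DMSO (SD, n = 3 each), a difference of 0.7. An exact two-sided permutation test gave p = 0.1, the smallest that 3 against 3 libraries allow. The difference was also 0.7 against DMSO replicate 3 alone.

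**Figure D2:**
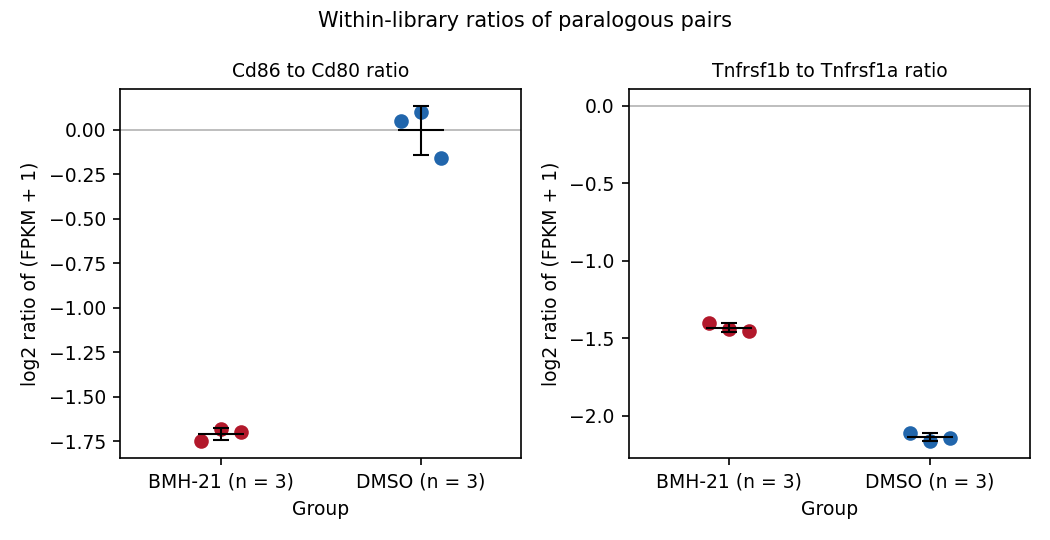
Ratio within each library on a log scale, for Cd86 over Cd80 and for Tnfrsf1b over Tnfrsf1a, with BMH-21 libraries left of DMSO libraries. As a plain ratio of FPKM values, Cd86 over Cd80 lies between 0.132 and 0.144 in BMH-21 and between 0.836 and 1.12 in DMSO. Tnfrsf1b over Tnfrsf1a is higher in all 3 BMH-21 libraries.

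Cd40, the receptor through which T cell help reaches the macrophage, was at 1.00, 0.703 and 0.621 FPKM in BMH-21 libraries, against 5.85, 5.45 and 5.05 FPKM in DMSO libraries. The lowest DMSO library was several times the highest BMH-21 library. The levels correspond to about 56, 47 and 39 reads in BMH-21 and about 421, 351 and 341 reads in DMSO, so the smaller group rests on fewer reads and varied more (coefficient of variation 25.8% in BMH-21 and 7.39% in DMSO). The means were 0.775 ± 0.2 FPKM in BMH-21 and 5.45 ± 0.4 FPKM in DMSO (SD, n = 3 each), a ratio of 0.142. With 1 FPKM added, the log2 difference was -1.87 ± 0.08 (SE; 95% interval -2.05 to -1.68; adjusted p = 2.9e-08 by limma). Counted from the lowest difference, Cd40 stood at place 42 of the 9748 tested genes. Against DMSO replicate 3 alone it was -1.77. Cd40 lies on chromosome 2 from 165055627 to 165072948 on the plus strand. In a bulk sample, fewer cells that express a gene and less RNA of it per cell cannot be told apart, here and for every member.

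Cd80 (B7-1) binds CTLA-4 more tightly than CD28. Its level was 4.46, 3.84 and 4.21 FPKM in BMH-21 libraries, against 1.38, 1.65 and 1.86 FPKM in DMSO libraries. The groups were far apart, and DMSO replicate 3 was the highest of its group. The means were 4.17 ± 0.31 FPKM in BMH-21 and 1.63 ± 0.24 FPKM in DMSO (SD, n = 3 each). The log2 difference of 0.98 ± 0.08 (SE; 95% interval 0.81 to 1.15; adjusted p = 1.27e-06 by limma) was the largest rise among the members, at percentile 98.3 of the tested genes. Against DMSO replicate 3 alone it was 0.85 (adjusted p = 4.28e-05 by limma). The gene lies on chromosome 16 from 38455561 to 38496335 on the plus strand.

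Cd86 (B7-2) is the paralogue of Cd80 and shares its receptors. Its level was 0.626, 0.508 and 0.604 FPKM in BMH-21 libraries, against 1.46, 1.84 and 1.56 FPKM in DMSO libraries, or about 30, 29 and 32 reads in BMH-21 and about 89, 101 and 89 in DMSO. The groups did not overlap. The means were 0.579 ± 0.062 FPKM in BMH-21 and 1.62 ± 0.2 FPKM in DMSO (SD, n = 3 each), a ratio of 0.357. The log2 difference was -0.73 ± 0.07 (SE; 95% interval -0.89 to -0.57; adjusted p = 6.23e-06 by limma). Cd86 entered that test only through the DMSO libraries, where it is high, so a difference was built into its selection. Cd86 lies on chromosome 16 from 36603869 to 36666081 on the minus strand.

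In DMSO cells the mRNAs of the CD28 ligands were on polysomes at overlapping levels, and in BMH-21 cells Cd80 was the higher in each library. Cd86 over Cd80 was 0.14, 0.132 and 0.144 in BMH-21 libraries, against 1.06, 1.12 and 0.836 in DMSO libraries. On the log2 scale with 1 FPKM added, the ratio was -1.71 ± 0.03 in BMH-21 and 0 ± 0.14 in DMSO (SD, n = 3 each). The difference of -1.71 reached p = 0.1 in an exact two-sided permutation test, again the smallest possible. It was -1.55 against DMSO replicate 3 alone.

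Nos2 makes nitric oxide from arginine and is the textbook M1 enzyme of the mouse. Its level was 0.024, 0.0898 and 0.0758 FPKM in BMH-21 libraries, near the detection limit, against 0.449, 0.552 and 0.428 FPKM in DMSO libraries. These are about 2, 8 and 7 reads in BMH-21 and about 45, 50 and 41 reads in DMSO. The groups did not overlap, although both were under 1 FPKM. The means were 0.0632 ± 0.035 FPKM in BMH-21 and 0.477 ± 0.066 FPKM in DMSO (SD, n = 3 each), a ratio of 0.133. An exact two-sided permutation test of the log2(FPKM + 1) difference of -0.47 gave p = 0.1, the smallest possible. Without the level filter Nos2 was called (adjusted p = 0.000495 by limma). Nos2 lies on chromosome 11 from 78920787 to 78960254 on the plus strand.

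Ptgs2 encodes cyclooxygenase 2, the inducible enzyme that starts prostaglandin synthesis. It was at 1.84, 1.61 and 1.14 FPKM in BMH-21 libraries, against 0.499, 0.687 and 1.19 FPKM in DMSO libraries. BMH-21 replicate 3 was below DMSO replicate 3, so the groups overlapped, and DMSO replicate 3 was 2 times the mean of the other DMSO libraries. The means were 1.53 ± 0.35 FPKM in BMH-21 and 0.791 ± 0.36 FPKM in DMSO (SD, n = 3 each). The log2 difference was 0.51 ± 0.14 (SE; 95% interval 0.19 to 0.82; adjusted p = 0.00709 by limma), and an exact two-sided permutation test gave p = 0.2.

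The calls on Ptgs2 and Tnfrsf1a were the least secure of the 9, that on Tnfrsf1a through the scaling, as given above, and that on Ptgs2 as follows. Against DMSO replicate 3 alone, the library with epithelial transcripts like those of the BMH-21 libraries, the difference was 0.2 (95% interval -0.12 to 0.52; adjusted p = 0.234 by limma) and the BMH-21 mean was 1.29 times that library. Without the level filter Ptgs2 was not called either (adjusted p = 0.0706 by limma). For the other members DMSO replicate 3 was 0.855 to 1.23 times the mean of DMSO replicates 1 and 2, and the calls of the 8 that were tested held against it alone. Ptgs2 lies on chromosome 1 from 150100031 to 150108227 on the plus strand.

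Socs3 encodes the feedback inhibitor that blocks JAK kinases at gp130-type cytokine receptors. Its level was 1.58, 1.9 and 1.9 FPKM in BMH-21 libraries, against 4.44, 4.08 and 4.46 FPKM in DMSO libraries. The groups were far apart and tight, with means of 1.79 ± 0.18 FPKM in BMH-21 and 4.33 ± 0.21 FPKM in DMSO (SD, n = 3 each). The ratio of these means was 0.414. The log2 difference was -0.93 ± 0.06 (SE; 95% interval -1.07 to -0.79; adjusted p = 4.57e-07 by limma), at percentile 6.61 of the tested genes. Against DMSO replicate 3 alone it was -0.97. Socs3 lies on chromosome 11 from 117966079 to 117970047 on the minus strand.

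Irf5, a transcription factor that drives M1 cytokine genes downstream of Toll-like receptors, was the most abundant member in BMH-21 cells. Its level was 81.9, 76.8 and 83.6 FPKM in BMH-21 libraries, against 63.6, 66.1 and 66.2 FPKM in DMSO libraries. The groups did not overlap. The means were 80.8 ± 3.6 FPKM in BMH-21 and 65.3 ± 1.5 FPKM in DMSO (SD, n = 3 each), a ratio of 1.24. The log2 difference was 0.3 ± 0.04 (SE; 95% interval 0.21 to 0.4; adjusted p = 9.93e-05 by limma), 0.53 above the shift of all genes. Irf5 lies on chromosome 6 from 29526625 to 29541871 on the plus strand.

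**Figure D3:**
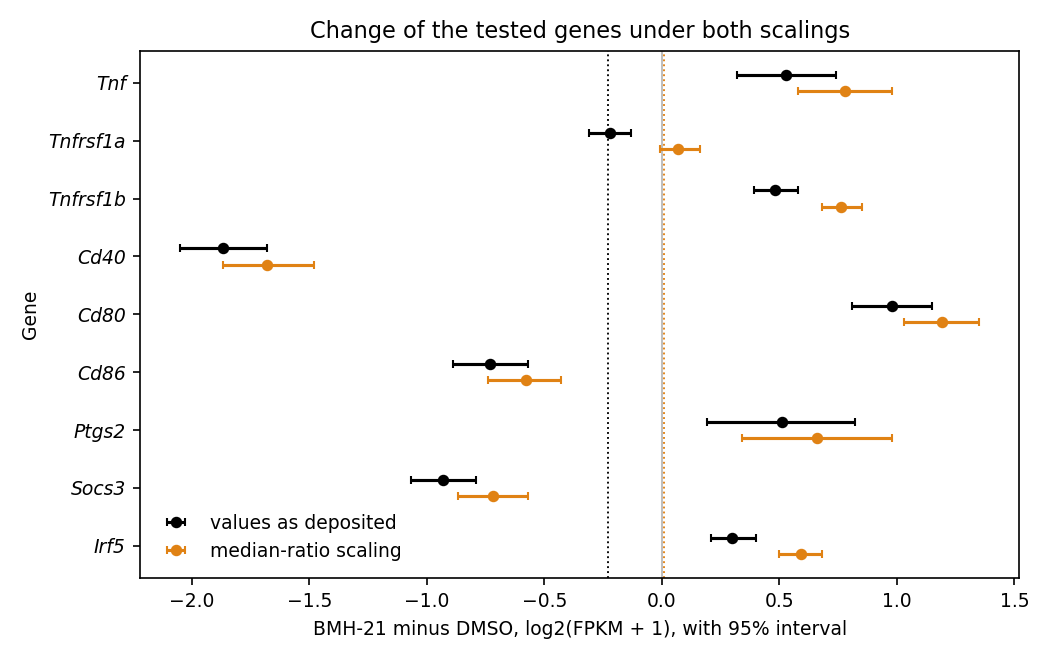
Difference of each tested member, BMH-21 minus DMSO on the log2(FPKM + 1) scale, with its 95% interval, beside the median of all tested genes at -0.23. Cd40 at -1.87 and Cd80 at 0.98 are the extremes, and Tnfrsf1a at -0.22 lies on the median of all genes.

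The order of levels differed between the groups at several places. In BMH-21 libraries Irf5 was highest, followed by Tnfrsf1a, Tnfrsf1b, Tnf and Cd80, each above the next in all 3 libraries. Socs3 and Ptgs2 came next with overlapping values, then Cd40 and Cd86, which also overlapped, and Nos2 was lowest. In DMSO libraries Tnfrsf1a was above Irf5, and Tnfrsf1b came next. Tnf and Cd40 overlapped there, Socs3 lay below them, Cd80 and Cd86 overlapped, and Ptgs2 and Nos2 overlapped at the low end. Cd40 thus stood beside Tnf in DMSO cells and beside Cd86 in BMH-21 cells.

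RefSeq promoter entries (GRCm38.p6) were matched for 7 members, and the 250 bases before the start were searched on both strands for 5 motifs. Those of the 4 members below are shown because each rose and its RefSeq start is the same as in GENCODE, with motif matches in capitals. The regions are chr17:35202008-35202257 on the minus strand for Tnf, chr1:150099781-150100030 on the plus strand for Ptgs2, chr6:29526375-29526624 on the plus strand for Irf5 and chr4:145246871-145247120 on the minus strand for Tnfrsf1b.
Tnf: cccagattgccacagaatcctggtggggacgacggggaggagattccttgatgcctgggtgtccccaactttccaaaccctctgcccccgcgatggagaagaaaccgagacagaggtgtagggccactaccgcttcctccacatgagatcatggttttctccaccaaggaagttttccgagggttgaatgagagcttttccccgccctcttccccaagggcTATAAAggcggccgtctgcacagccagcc
Ptgs2: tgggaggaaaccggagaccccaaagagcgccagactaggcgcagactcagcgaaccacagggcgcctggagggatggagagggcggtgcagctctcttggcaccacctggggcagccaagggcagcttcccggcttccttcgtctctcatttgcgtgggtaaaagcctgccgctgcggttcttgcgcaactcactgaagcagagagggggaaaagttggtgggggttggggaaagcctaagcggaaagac
Irf5: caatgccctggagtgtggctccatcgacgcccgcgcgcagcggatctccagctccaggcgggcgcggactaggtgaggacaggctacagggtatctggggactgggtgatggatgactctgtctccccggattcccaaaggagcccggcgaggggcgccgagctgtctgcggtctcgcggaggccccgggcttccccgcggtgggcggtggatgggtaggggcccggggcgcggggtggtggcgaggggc
Tnfrsf1b: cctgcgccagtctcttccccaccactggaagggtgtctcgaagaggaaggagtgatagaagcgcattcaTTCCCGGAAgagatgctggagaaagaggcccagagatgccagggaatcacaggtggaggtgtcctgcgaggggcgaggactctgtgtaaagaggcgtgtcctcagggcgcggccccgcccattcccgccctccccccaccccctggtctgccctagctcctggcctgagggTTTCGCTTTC
The Tnf promoter holds the TATA motif TATAAA, 29 to 24 bases before the start, which 12.4% of 32851 promoters hold within the same length. The Tnfrsf1b promoter holds a match to the STAT-type GAS motif TTCNNNGAA, 181 to 173 bases before the start, which 7.02% of promoters hold. It also has the interferon-response motif ISRE on the reverse strand in its last 10 bases, which 2.98% hold. The Ptgs2 and Irf5 windows held no match to TATAAA, TTCNNNGAA, the AP-1 motif TGANTCA (6.75% of promoters), ISRE or the NF-kB motif (3.9%). Cd80 had an AP-1 match, and Socs3 and Tnfrsf1a had a GAS match, each before the RefSeq start. GENCODE starts these genes further upstream, by 3372 bases for Cd80, 681 for Socs3 and 361 for Tnfrsf1a. Their matches therefore lie inside the GENCODE genes. GAS matches thus stood before the RefSeq start of Tnfrsf1b, which rose, and before that of Socs3, which fell. These are descriptions of letters in a window, and no factor was measured here.

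Genes that act with the members were read from the same fit in 10 lists, which share some genes. They hold 240 different names, of which 226 were in the table and 169 were tested. Of these 28 rose, 107 fell and 34 were not called, with a median difference of -0.33, or 0.1 below that of all tested genes. That is 79.9% called, 16.6% higher and 63.3% lower, near the 78.3%, 19.9% and 58.4% of all tested genes, so these counts are no result about the lists. By list, the share called ran from 63.6% for CD40 signalling and TRAF users to 96.7% for the SOCS family and STAT pathway. The list counts below are to be read beside the 78.3% of all tested genes. Of the 169 genes, 8 passed the level filter through DMSO libraries alone and 2 through BMH-21 libraries alone, so a difference was built into their selection. Among the genes named below these are Icam2, Arg1, Hpgd and Tnfrsf9, all under 1 FPKM in every BMH-21 library. After median-ratio scaling, which raised the median of all genes by 0.24, 51 rose and 74 fell. Up to 4 genes a list are named, those with the smallest p-values, with group means ± SD over 3 libraries.

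**Figure D4:**
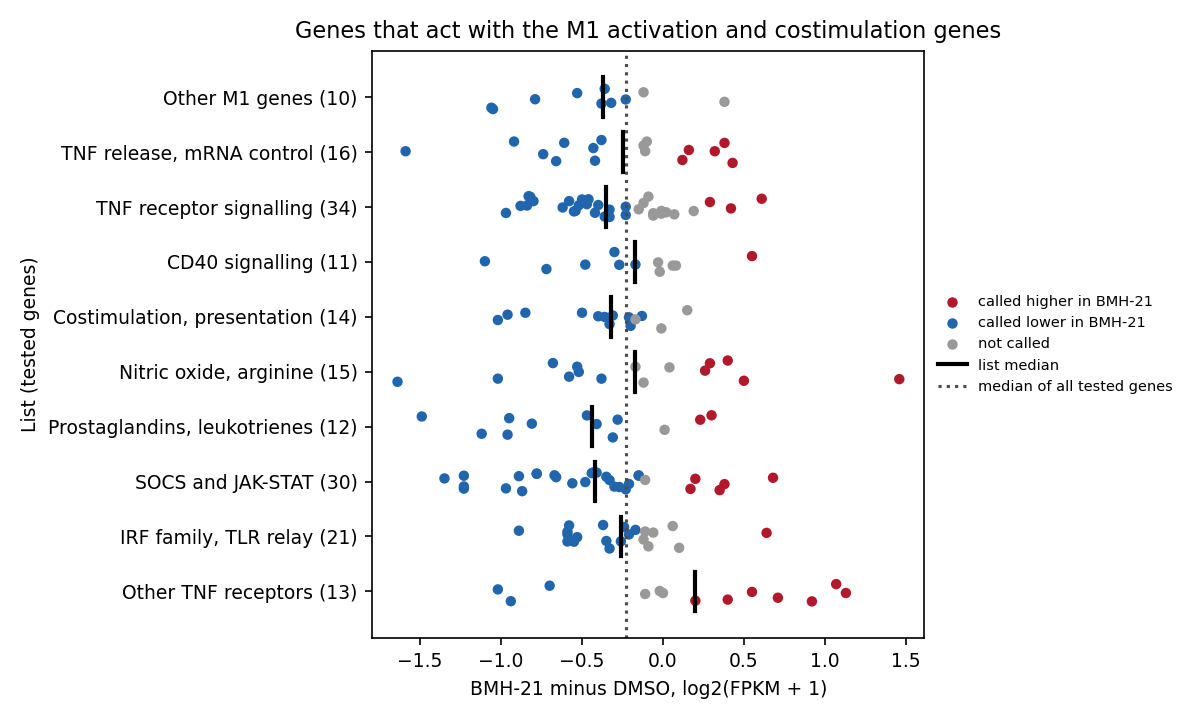
Tested genes in each of the 10 lists that rose, were not called, or fell under BMH-21. The list of other TNF superfamily receptors has 7 risen and 3 fallen genes, and every other list has more fallen than risen genes, which after median-ratio scaling no longer holds for CD40 signalling (5 risen, 4 fallen) and nitric oxide and arginine (6 each). After quantile normalization it does not hold for CD40 signalling (5 risen, 2 fallen), the IRF family (7 risen, 6 fallen) and TNF processing (7 each), and after upper-quartile scaling for CD40 signalling (4 each).

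Of 16 tested genes that process TNF or control its RNA, 5 rose and 8 fell, with a median of -0.25. Zfp36l1, an RNA-binding protein that promotes decay of mRNAs with AU-rich elements, fell to 4.72 ± 0.13 FPKM in BMH-21 against 16.2 ± 0.69 FPKM in DMSO (log2 -1.59). Khsrp and Tial1, which bind such elements too, fell to 12.7 ± 1.1 and 7.61 ± 0.54 FPKM in BMH-21, against 21.8 ± 0.51 and 12.6 ± 0.051 FPKM in DMSO. Ltb, encoding lymphotoxin beta, fell to 3.89 ± 0.46 FPKM in BMH-21 against 8.23 ± 0.23 FPKM in DMSO. Zfp36 (tristetraprolin), named after its values were seen, rose to 12.2 ± 0.92 FPKM in BMH-21 against 9.12 ± 0.23 FPKM in DMSO. The number that rose was 3 without BMH-21 replicate 1 or DMSO replicate 3, with DMSO replicate 3 as the only control, and with column totals made equal.

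Of 34 tested genes that carry the signal of the TNF receptors, 3 rose and 21 fell (10 rose and 15 fell after median-ratio scaling), with a median of -0.35. Traf2, the adaptor shared by both receptors, fell to 5.06 ± 0.2 FPKM in BMH-21 against 9.56 ± 0.36 FPKM in DMSO. Birc3, a ubiquitin ligase bound to TRAF2, fell to 8.01 ± 0.2 FPKM in BMH-21 against 15.2 ± 0.91 FPKM in DMSO. Tab1, an activator of the kinase TAK1, fell to 5.66 ± 0.16 FPKM in BMH-21 against 10.8 ± 0.46 FPKM in DMSO, and Nfkb1, a subunit of NF-kB, to 3.21 ± 0.14 FPKM in BMH-21 against 6.77 ± 0.15 FPKM in DMSO. Of 13 tested further receptors of the TNF superfamily, 7 rose and 3 fell, with a median of 0.2. Tnfrsf12a, the receptor for TWEAK, rose to 21.5 ± 0.62 FPKM in BMH-21 against 9.7 ± 0.93 FPKM in DMSO. Tnfrsf23 and Tnfrsf26, neighbouring and similar mouse receptor genes between which reads may be shared, rose to 18.9 ± 0.8 and 19.5 ± 0.42 FPKM in BMH-21, against 9.47 ± 0.42 and 11.5 ± 0.23 FPKM in DMSO. Tnfrsf9 (4-1BB), a costimulatory receptor, fell to 0.197 ± 0.044 FPKM in BMH-21 against 1.43 ± 0.065 FPKM in DMSO.

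Of 11 tested genes of CD40 signalling and of other users of TRAF proteins, 1 rose and 6 fell, with a median of -0.17. After median-ratio scaling 5 rose and 4 fell. Jak3, a kinase that binds CD40, fell to 1.1 ± 0.21 FPKM in BMH-21 against 3.5 ± 0.17 FPKM in DMSO. Tbk1, a kinase that TRAF proteins recruit, fell to 4.3 ± 0.34 FPKM in BMH-21 against 7.74 ± 0.18 FPKM in DMSO, and the adaptor Traf3ip2 to 1.91 ± 0.26 FPKM in BMH-21 against 3.05 ± 0.19 FPKM in DMSO. Traf3ip2 was not called after quantile normalization (-0.18, adjusted p = 0.06 by limma). The gene that rose was Tnfrsf11a, the receptor RANK, at 12.8 ± 0.42 FPKM in BMH-21 against 8.39 ± 0.27 FPKM in DMSO. It is also counted in the list of other TNF superfamily receptors.

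Of 14 tested genes of costimulation and antigen presentation, 0 rose and 11 fell, with a median of -0.32. That is 78.6% called, near the 78.3% of all tested genes. After median-ratio scaling 3 rose and 4 fell, and 1 rose without BMH-21 replicate 2, without DMSO replicate 1, with the replicate number as a block, or without the level filter. The named ones are adhesion molecules and inhibitory partners, and none is a CD28 ligand. Nectin2, an adhesion ligand seen by T and NK cells, fell to 5.01 ± 0.2 FPKM in BMH-21 against 11.2 ± 0.64 FPKM in DMSO, and the integrin ligand Icam2 to 0.36 ± 0.069 FPKM in BMH-21 against 1.64 ± 0.2 FPKM in DMSO. Havcr2 (TIM-3), an inhibitory receptor, fell to 6.49 ± 0.38 FPKM in BMH-21 against 12.5 ± 1.1 FPKM in DMSO, and Lgals9, its ligand galectin-9, to 24 ± 0.75 FPKM in BMH-21 against 34.3 ± 1.7 FPKM in DMSO.

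Of 15 tested genes of nitric oxide and arginine metabolism, 5 rose and 7 fell, with a median of -0.17 (6 rose and 6 fell after median-ratio scaling). Arg1, the M2 enzyme that uses the same arginine as Nos2, fell to 0.692 ± 0.044 FPKM in BMH-21 against 4.29 ± 0.15 FPKM in DMSO (log2 -1.64). Nos2 and Arg1 were thus both lower in every BMH-21 library, and Gch1, which starts synthesis of the Nos2 cofactor tetrahydrobiopterin, fell to 14 ± 0.67 FPKM in BMH-21 against 23 ± 0.63 FPKM in DMSO. Odc1, the ornithine decarboxylase of polyamine synthesis, rose to 154 ± 5 FPKM in BMH-21 against 55.3 ± 3.8 FPKM in DMSO (log2 1.46).

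Of 12 tested prostaglandin and leukotriene genes, 2 rose and 9 fell, with a median of -0.44. Ptgs1, the constitutive cyclooxygenase, fell to 1.6 ± 0.17 FPKM in BMH-21 against 4.05 ± 0.48 FPKM in DMSO (log2 -0.96), the direction opposite to that of Ptgs2. Hpgd and Ptgr1, which degrade prostaglandins, fell to 0.297 ± 0.041 and 5.21 ± 0.36 FPKM in BMH-21, against 2.65 ± 0.21 and 12.5 ± 0.46 FPKM in DMSO. Lta4h, the leukotriene A4 hydrolase, fell to 1.7 ± 0.23 FPKM in BMH-21 against 4.21 ± 0.41 FPKM in DMSO.

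Of 30 tested genes of the SOCS family and the cytokine receptors and STAT pathway it acts on, 5 rose and 24 fell, with a median of -0.42 (5 rose and 16 fell after median-ratio scaling, and 3 rose with DMSO replicate 3 as the only control or with column totals made equal). Cish, a relative of Socs3, fell to 1.76 ± 0.12 FPKM in BMH-21 against 5.48 ± 0.34 FPKM in DMSO. Ptpn6, a phosphatase that also restrains cytokine signals, fell to 10.9 ± 0.46 FPKM in BMH-21 against 27 ± 0.38 FPKM in DMSO. Il10ra, the receptor of IL-10, a cytokine known to induce Socs3, fell to 4.1 ± 0.32 FPKM in BMH-21 against 12 ± 0.45 FPKM in DMSO, and the receptor kinase Tyk2 to 5.5 ± 0.39 FPKM in BMH-21 against 14.2 ± 0.19 FPKM in DMSO.

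Of 21 tested genes of the IRF family and the relay from Toll-like receptors, 1 rose and 14 fell, with a median of -0.26 (5 rose and 8 fell after median-ratio scaling, and 7 rose and 6 fell after quantile normalization). Irf3 and Irf8, relatives of Irf5, fell to 2.55 ± 0.25 and 10.5 ± 0.22 FPKM in BMH-21, against 5.57 ± 0.36 and 16.2 ± 0.6 FPKM in DMSO, while Irf5 rose. Lyn, a kinase that restrains IRF5, fell to 12.8 ± 0.23 FPKM in BMH-21 against 19.8 ± 0.42 FPKM in DMSO. Slc15a4, a lysosomal transporter needed for IRF5 activation by Toll-like receptors, fell to 9.08 ± 0.37 FPKM in BMH-21 against 13.8 ± 0.029 FPKM in DMSO.

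Of 10 tested further M1 cytokines, receptors and interferon targets, 0 rose and 8 fell, with a median of -0.37. After median-ratio scaling 1 rose and 4 fell, and 1 rose without BMH-21 replicate 3. Tlr2, the receptor for bacterial lipoproteins, fell to 11.6 ± 0.091 FPKM in BMH-21 against 24.9 ± 0.95 FPKM in DMSO, and the Fc receptor Fcgr1 to 17 ± 0.74 FPKM in BMH-21 against 36.4 ± 1.1 FPKM in DMSO. The cytokine Il18 fell to 3.71 ± 0.71 FPKM in BMH-21 against 7.1 ± 0.85 FPKM in DMSO. Tlr4, the LPS receptor, fell to 26.3 ± 1.6 FPKM in BMH-21 against 33.9 ± 1.4 FPKM in DMSO, a call that ended after median-ratio scaling (-0.07, adjusted p = 0.23 by limma) and upper-quartile scaling (-0.13, adjusted p = 0.0524 by limma). The other 15 measured genes of this list were under the level filter, with group means of at most 0.909 FPKM. Il1b averaged 0.027 FPKM in BMH-21 and 0.0384 FPKM in DMSO, and Il6 was listed at 0 in every BMH-21 library. Of the M1 cytokines measured here, Tnf was thus well detected, while Il1b and Il6 were at or near 0 in both groups.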

How the data were processed

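Polysome RNA of M2 RAW264.7 cells was measured in 3 BMH-21 and 3 DMSO libraries, grouped by their titles. Trimmomatic 0.38, HISAT2, SAMtools and the mm10 build are named in the submitters' processing notes; for counting, normalising and annotation, the tool is not given in the sources used here. The authors deposited 1 table of 19233 genes whose values were read as FPKM from their size and steps, since no header names the unit. FPKM is a share of a library, so a few abundant genes can lower all others. Of 1975 to 2332 low genes per library, 64.5 to 68.3% gave whole reads within 0.01, too few to recover counts, so read numbers are approximate. Genes at 1 FPKM or more in at least 3 samples (9748, 50.7%) were tested with limma 3.58.1 (R 4.3.3) on log2(FPKM + 1) with a trended prior and Benjamini-Hochberg adjustment at 0.05. The fit was also run on simulated data in which few genes changed and no shift of all genes was set. That run therefore does not test the fit under the broad change seen here. Single values were tested by an exact two-sided permutation test. The labels do not say whether replicates were separate cultures. The p-values therefore reflect spread among these 6 libraries, and that spread may be technical.

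The members and all lists were chosen with earlier results of these data known, so no p-value over a list is given. The text names the 10 members, and of each list up to 4 tested genes in ascending order of p, of which 1 is not reported here. The lists were other M1 genes, TNF processing and RNA control, TNF receptor signalling, CD40 signalling with TRAF users, and costimulation with antigen presentation. The rest were nitric oxide and arginine, prostaglandins, the SOCS and STAT axis, the IRF family with Toll-like receptor relay, and other TNF superfamily receptors. Coordinates and 3′ UTRs came from GENCODE M21 (GRCm38) and promoters from RefSeq, with Python 3.11.15. Alternatives were other filters, pseudocounts and scalings, a replicate block, each library left out, and DMSO replicate 3 as the only control.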

Additional observations from a re-analysis of the deposited data

How the results depend on the processing

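The 9 tested members were compared under 17 other settings. Scaling moved the split of all genes: 3724 rose and 3442 fell after median-ratio scaling, 3517 rose and 3498 fell after quantile normalization, and 3349 rose after upper-quartile scaling. The all-gene median moved up by 0.24, 0.23 and 0.19 on the log2 scale under those settings. Tnfrsf1a turned to 0.07 (median-ratio) and 0.01 (upper-quartile), neither called by limma. With 1 FPKM required in all 6 samples, 2 members were called lower, since Cd40 and Cd86 were no longer tested, and Ptgs2 left the test as well. With no filter Nos2 was called lower (-0.47, adjusted p = 0.000495 by limma) and Ptgs2 was not (0.51, adjusted p = 0.0706). With DMSO replicate 3 as the only control, chosen after seeing the data, Ptgs2 was not called (0.2); the cause was not tested. Without each library in turn, 7306 to 7441 genes were called, 9 members remained called, Ptgs2 ran from 0.39 to 0.66, and the ratio differences ran from -1.79 to -1.65 for Cd86 over Cd80 and from 0.69 to 0.72 for Tnfrsf1b over Tnfrsf1a. Of 675 alternative values of the 40 genes that the naming rule took from the lists, 672 kept their direction and call, and 3 were not called. Same-numbered libraries did not deviate together (correlations -0.11, -0.09 and -0.06), and the main fit did not pair them. With 3 libraries a group, this check cannot show whether same-numbered samples were prepared together. With the replicate number as a block, 1894 genes rose, 5608 fell and 9 members were called, and the ratio differences were -1.71 and 0.7. Depth limits Nos2, Cd86 and Cd40 most, with 2 to 8, 29 to 32 and 39 to 56 reads per BMH-21 library.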

Other observations

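Genes with the same pattern as the epithelial markers were looked for after the values were seen, as those above 0.3 FPKM in all 3 BMH-21 libraries and DMSO replicate 3 and at least 5 times lower in DMSO replicates 1 and 2. This gave 29 genes, among them 4 of the 5 epithelial markers (Krt8, Krt18, Epcam and Cdh1) and 0 of the 10 members. Wfdc2, a secreted protein of epithelia, was at 2.48, 2.25 and 3.63 FPKM in BMH-21 libraries, against 0, 0 and 1.67 FPKM in DMSO libraries. The chemokine Cxcl1, an inflammatory gene that is also among the 29, was at 7.9, 8.58 and 0.923 FPKM in BMH-21 libraries, against 0, 0 and 6.91 FPKM in DMSO libraries, and was not called (adjusted p = 0.12 by limma). Its BMH-21 replicate 3 was several times lower than the other BMH-21 libraries. Mmp9, a secreted protease, was at 3.49, 2.99 and 1.98 FPKM in BMH-21 libraries, against 0.153, 0.17 and 2.57 FPKM in DMSO libraries, and was called higher although the groups overlapped. Fn1, encoding fibronectin, was at 1.49, 1.4 and 2.9 FPKM in BMH-21 libraries, against 0, 0 and 1.43 FPKM in DMSO libraries.

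The interferon-induced chemokine Cxcl10 was at 1.49, 0.748 and 0.491 FPKM in BMH-21 libraries, against 0.424, 0.349 and 1.2 FPKM in DMSO libraries. Its groups overlapped, and DMSO replicate 3 was the highest of its group, as it was for Ptgs2. What set DMSO replicate 3 apart was not tested.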
